A study of Mus musculus with 6 samples.

Results

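The cytosolic ribosomal protein genes were examined in hippocampal total RNA of adult mice that had lost CBP, the lysine acetyltransferase encoded by Crebbp, in forebrain excitatory neurons. They were taken from the count table by name, as protein-coding genes whose symbol begins with Rpl or Rps and a digit, together with Rplp0, Rplp1, Rplp2 and Rpsa, without the Rps6k kinases. Of 91 candidate genes, the 76 with at least 60 counts over all libraries were kept, out of 55471 genes in the table. There were 30 with the small subunit prefix (Rps) and 46 with the large subunit prefix (Rpl). Of these, 71 encode standard proteins of the ribosome and 5 share only the prefix or are paralogues, namely Rpl22l1, Rps27l, Rpl36al, Rpl7l1 and Rps19bp1, whose product binds RPS19. A further gene of the family is not analysed here.

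A ribosome is built from ribosomal RNA and a single copy of most ribosomal proteins, and cells make these proteins in matched amounts. In mammals nearly every ribosomal protein is made from a single functional gene, but reverse transcription of the abundant messages has left many processed pseudogenes across the genome. Their messages start with a cytosine followed by a run of pyrimidines, the 5′ terminal oligopyrimidine (TOP) motif, through which mTORC1 and the RNA-binding protein LARP1 control translation. Neurons need ribosomal proteins for the local protein synthesis that accompanies synaptic plasticity.

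Both groups held 3 libraries of mice of the C57BL/6 strain, 3 to 6 months old, and all mice had received 5 intragastric doses of tamoxifen (20 mg/mL in corn oil). CBP-ifKO mice carried floxed Crebbp alleles and the Camk2a_creERT2 transgene, in which the Camk2a promoter confines the tamoxifen-dependent Cre recombinase to forebrain excitatory neurons, so that glia, vessels and interneurons kept Crebbp. The study's methods describe CBP-ifKO experiments on pooled hippocampi of females and on single mice, and the labels do not say whether these libraries were pools or single animals. Control mice were littermates without the transgene, although a label of the Control samples also names Camk2a_creERT2. Esr1, whose ligand-binding domain is part of that recombinase, was at 6.29, 6.27 and 5.65 CPM (counts per 1000000 counts, scaled with TMM factors) in Control and at 67.0, 69.4 and 63.6 CPM in CBP-ifKO, with no overlap.

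Total counts ran from 10199008 to 14950257 per library. Crebbp stood at 208.6, 156.4 and 208.5 CPM in Control and at 108.6, 87.2 and 99.4 CPM in CBP-ifKO, with no overlap. Its log2 fold change (CBP-ifKO minus Control, as for all fold changes given here) was -0.96 (SE 0.0997, edgeR adjusted p 3.63e-05). Markers of hippocampal principal neurons were present in every library, and Wfs1 and Fibcd1, both markers of CA1 pyramidal cells, were lower in CBP-ifKO (log2 fold changes -1.19 and -0.63, edgeR adjusted p 8.34e-07 and 1.48e-05). Of the 8 principal neuron markers 2 were positive and 6 negative. At an unadjusted p under 0.05 in edgeR, 2 were higher and 5 lower, against 8.23% and 13% of all genes tested. Neurod2 was called higher with GC and length trends removed (log2 fold change 0.35, edgeR adjusted p 0.0033). The 8 markers summed to between 2255 and 2386 CPM in Control and between 2035 and 2167 CPM in CBP-ifKO. The 6 astrocyte markers summed to 1725 to 1767 against 1590 to 1670 CPM and the 6 interneuron markers to 529 to 553 against 473 to 503 CPM. The 6 oligodendrocyte markers summed to 2367 to 2812 against 2437 to 2656 CPM, the 6 microglia markers to 144 to 160 against 138 to 147 CPM, the 6 endothelial markers to 164 to 182 against 146 to 180 CPM and the 6 choroid plexus markers to 27.5 to 32.2 against 29.7 to 36.7 CPM. Sst and Slc32a1, both interneuron genes, were the other markers past the threshold (-0.51 and -0.38, edgeR adjusted p 0.00154 and 0.0450). For Slc32a1 the call was made in 1 of 6 fits that left out a library and was lost with DESeq2 (adjusted p 0.0804) and with GC and length trends removed (-0.15, edgeR adjusted p 0.477). Of 6 markers each of astrocytes, oligodendrocytes, microglia and endothelial cells none passed the threshold, and of the choroid plexus markers 3 of 6 had enough counts to be tested and none passed it. No marker on these lists was at 0 in all libraries. The part of cell composition in the values below was not tested, and in such tissue RNA fewer cells of a type and less RNA per cell cannot be told apart.

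The sequences around the start sites of 5 members are shown because the TOP motif lies there. They were taken from RefSeq promoters (build GRCm38.p6), run from 30 bases before the annotated start to 20 bases from it, and carry the run of pyrimidines that begins with C in capitals.
Rps6 (chr4:86857348-86857397, minus strand): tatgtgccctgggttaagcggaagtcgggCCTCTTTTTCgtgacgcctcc
Rps18 (chr17:33955646-33955695, minus strand): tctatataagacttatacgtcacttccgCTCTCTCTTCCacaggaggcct
Rps27 (chr3:90213629-90213678, minus strand): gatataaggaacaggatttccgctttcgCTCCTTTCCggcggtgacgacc
Rpl15 (chr14:18270967-18271016, minus strand): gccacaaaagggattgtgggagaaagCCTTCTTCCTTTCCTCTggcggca
Rpl27a (chr7:109519165-109519214, plus strand): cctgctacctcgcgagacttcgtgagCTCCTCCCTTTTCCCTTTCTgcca

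RefSeq promoters were found for 59 of the 76 members, each from 250 bases before the start to 50 after it. A C within 10 bases of the annotated start, preceded by a purine and followed by at least 5 pyrimidines on the same strand, was present in 21 members (35.6%) and in 15.9% of the 27025 genes with a promoter. A C exactly at the annotated start with at least 5 pyrimidines after it, whatever the base before it, was present in 16.9% of the members and 2.05% of all genes with a promoter. Among the tested genes with a promoter, the shares were 17.8% and 2.19%, in the same order. In the 21 members the run itself began before or after the annotated start and never at it. CBP is recruited by CREB, which binds the cAMP response element. The core of that element, TGACG on either strand, was in 50.8% of the members' promoters, in 23% of all promoters and in 33.9% of those of genes tested. The full element TGACGTCA, which contains the core, was in 5 members (Rpl13, Rpl18, Rpl26, Rpl27a and Rps9), or 8.47%, against 2.03% of all promoters and 3.39% of those of genes tested. GGAAG on either strand, the core bound by ETS factors, was in 91.5% of the members' promoters and 73.9% of all. For genes tested the share was 78%. These matches describe letters and not bound sites. The median log2 fold change of the 30 members with TGACG was 0.02, and that of the members without it was also 0.02.

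The ribosomal protein genes took between 0.194% and 0.226% of all counts in Control (0.206 ± 0.0176%, SD, n = 3) and between 0.202% and 0.218% in CBP-ifKO (0.209 ± 0.00772%, SD, n = 3). Wilson 95% intervals reached at most 0.00276 percentage points to either side, and cover counting error only. Control replicate 2 lay above the other Control libraries by more than these intervals, and the CBP-ifKO libraries lay inside the range of the Control libraries. Mean levels of single members ran from 1.08 CPM for Rpl36 to 301.5 CPM for Rpl4, with 41 members above 10 CPM and 9 below 2 CPM.

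Control replicate 2 stood apart from the other Control libraries for these genes. It had the highest value of the 6 libraries for 26 of the 76 members, and Control replicate 1 had the lowest for 29. The median deviation of the members from their mean over the libraries, in log2 CPM, was -0.11, 0.11 and -0.03 in Control and -0.05, 0.07 and 0.02 in CBP-ifKO (in replicate order). Within each group replicate 2 was highest. The libraries also differed in how levels depended on the GC content of the transcript, over all genes tested. The slope of the deviation per 10 points of GC was 0.14 in Control replicate 2, -0.12 in CBP-ifKO replicate 2 and between -0.03 and 0.04 in the others. The members' median GC content was 50.9%, against 48.3% for all genes tested, and its part in the members' values was not tested beyond the fits with GC and length offsets given below.

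**Figure D1:**
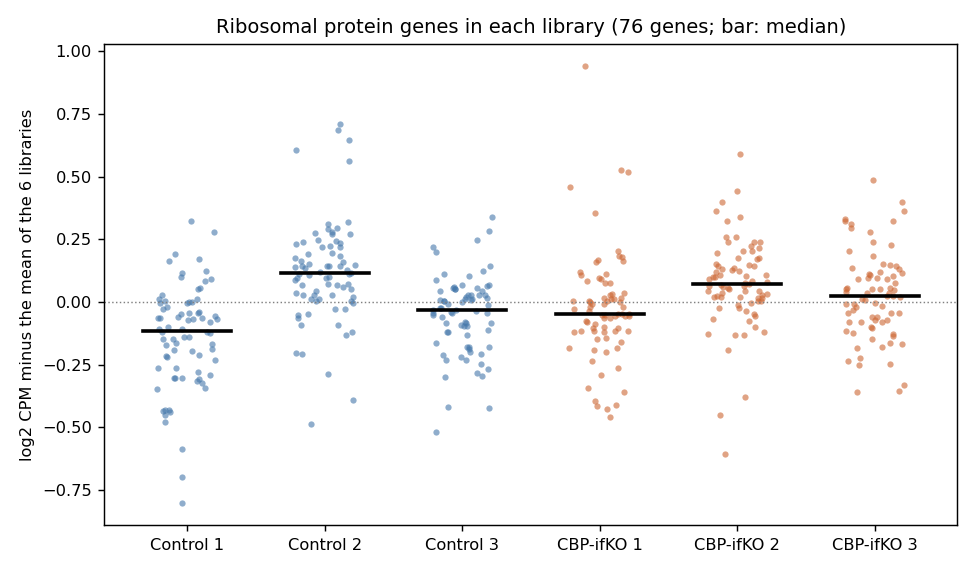
Log2 CPM of each of the 76 members minus its mean over the 6 libraries, by library, with 1 point per gene and a bar at the median. The median is lowest in Control replicate 1 (-0.11) and highest in Control replicate 2 (0.11), and the CBP-ifKO medians (-0.05 to 0.07) lie between them.

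Between CBP-ifKO and Control, 1 of the 76 ribosomal protein genes passed the test, and the median difference over the family was close to 0. All 76 passed the filter on low counts, and 42 had a positive and 34 a negative log2 fold change, with a median of 0.02 against -0.003 for all 17981 genes tested. No member rose and 1 fell, Rplp1, at an adjusted p under 0.05 in edgeR's quasi-likelihood test. Over all genes tested the same threshold called 1.4% higher and 4.99% lower, or 6.39% in either direction. At an unadjusted p under 0.05, 2 members were higher (Rpl7 and Rpl19) and 2 lower (Rplp1 and Rpl8), against 8.23% and 13% of all genes tested. DESeq2, the tool of the study, called none, and over all 17981 genes it called 1.07% higher and 4.23% lower. It gave no adjusted p for some members of low level, among them Rpl19, Rps10, Rpl35, Rps27, Rpl36al and Rps6. With library totals in place of TMM factors, which raised the median of all genes tested to 0.04 (10487 positive and 7494 negative), 57 members were positive and 19 negative (median 0.06). With GC and length trends removed, where the median of all genes was 0.015, the members split into 49 and 27 (median 0.05).

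The 95% interval of the log2 fold change lay within -1 and 1, a change of 2-fold, for 70 of the 76 members, and within -0.5 and 0.5 for 48. The members with wider intervals than the first limit included Rpl19, Rpl36, Rps10 and Rps27. The median SE was 0.0984 for members above 10 CPM and 0.202 for those below.

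**Figure D2:**
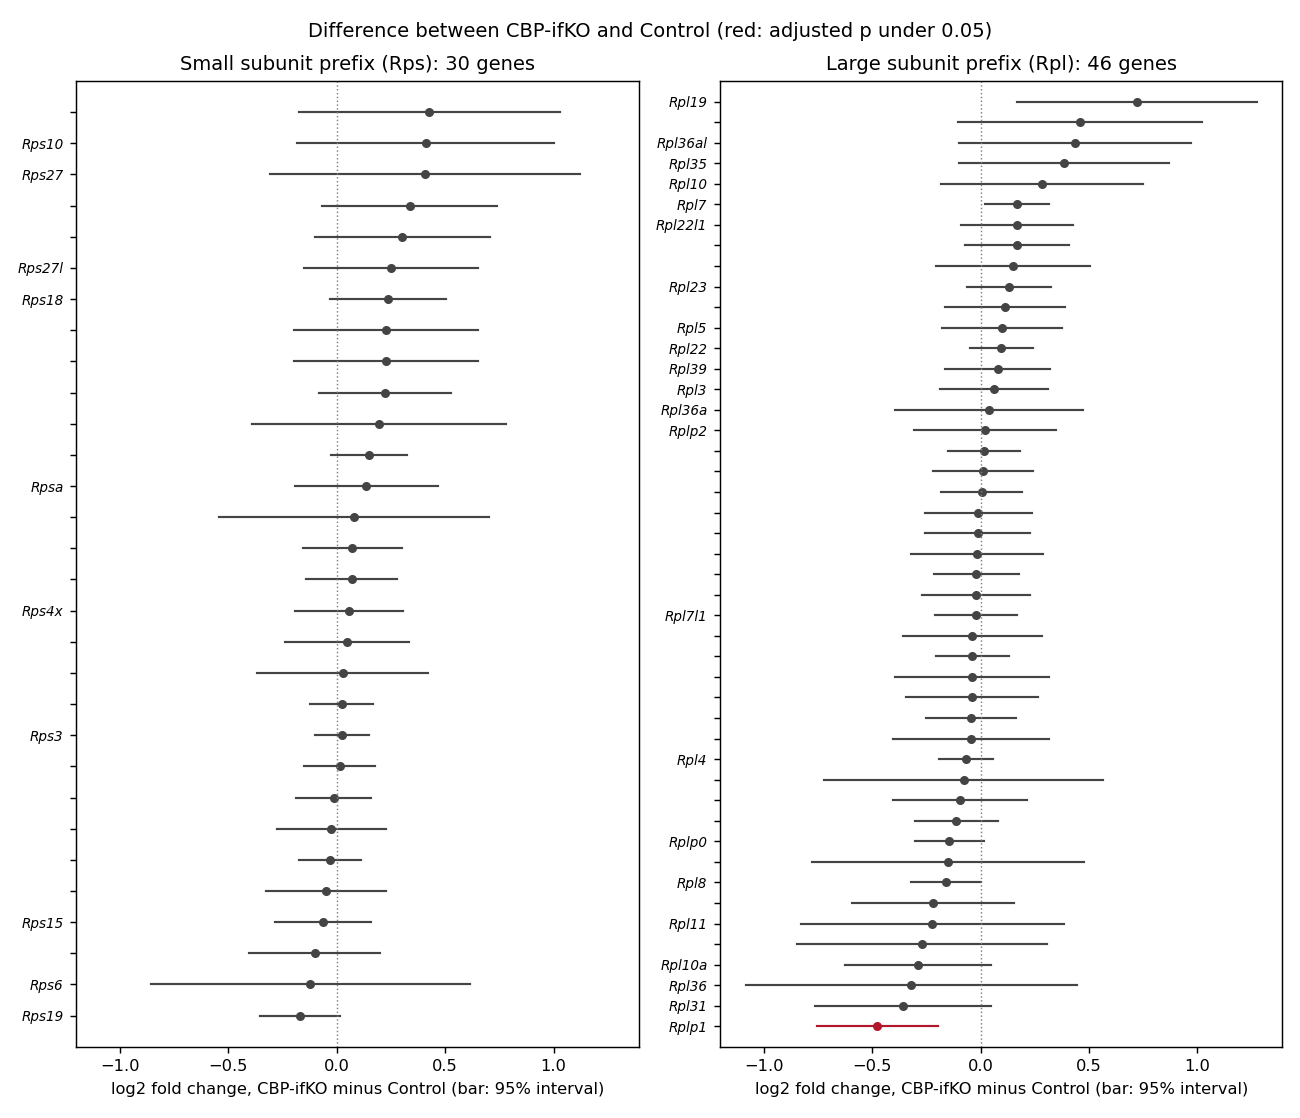
Log2 fold change (CBP-ifKO minus Control) of the 30 genes with the small subunit prefix and the 46 with the large subunit prefix, ordered by size, with names for genes described in the text, a bar for the 95% interval from edgeR and red for an adjusted p under 0.05. Only Rplp1 at -0.48 is red, and 4 of the 76 intervals leave out 0.

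Of the 30 genes with the small subunit prefix 22 were positive and 8 negative, at a median of 0.07 on the log2 scale, and none passed the threshold. Of the 46 genes with the large subunit prefix 20 were positive and 26 negative, with a median of -0.02, and 1, Rplp1, passed it. With library totals the medians were 0.12 and 0.03, against 0.04 for all genes tested, and with GC and length trends removed 0.13 and 0.025, against 0.015. The difference between the prefix sets, which hold a few genes that are not standard ribosomal proteins, was not tested. The median deviation of the Rps genes was -0.19, 0.08 and -0.03 in Control replicates and 0.004, 0.07 and 0.05 in CBP-ifKO replicates. That of the Rpl genes was -0.09, 0.14 and -0.03 and -0.05, 0.06 and 0.02. Both prefix sets were lowest in Control replicate 1 and highest in Control replicate 2.

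In 11 members the libraries of the groups did not overlap. All CBP-ifKO libraries lay above all Control libraries for 7 members (9.21%), namely Rpl7, Rpl19, Rpl23, Rpl35, Rps10, Rps18 and Rps27l, and below them for 4 (5.26%), namely Rplp0, Rps19, Rpl31 and Rpl10a. Among all genes tested these shares were 11.8% and 13.9%, both above those of the members. Of the members' log2 fold changes, 71.1% lay within 0.2 of 0, against 63.8% of all genes tested.

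**Figure D3:**
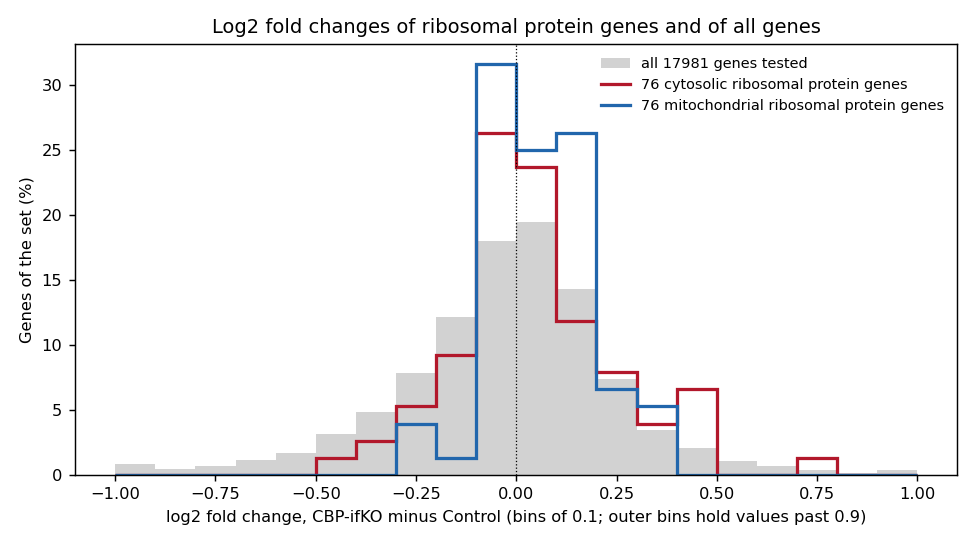
Share of each gene set (%) by log2 fold change (CBP-ifKO minus Control) in bins of 0.1, for all 17981 genes tested (grey), the 76 cytosolic members (red) and 76 mitochondrial ribosomal protein genes (blue). All have their bulk near 0, with medians of -0.003, 0.02 and 0.04.

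Rplp1 was the member past the threshold. With RPLP0 and RPLP2 its product forms the stalk of the large subunit, which recruits elongation factors. Rplp1 (chromosome 9, 61913284 to 61914542, minus strand) was at 75.9, 127.7 and 97.9 CPM in Control and at 62.4, 78.3 and 75.7 CPM in CBP-ifKO. CBP-ifKO replicate 2 was above the lowest Control library, so the groups overlapped, and the Control libraries spread more widely than those of CBP-ifKO. The means were 100.5 ± 26.03 and 72.1 ± 8.52 CPM (SD, n = 3), with a log2 fold change of -0.48 ± 0.133 (SE, adjusted p 0.0414 in edgeR). The call was made in 1 of 6 fits that left out a library. Without Control replicate 2, the highest, the log2 fold change was -0.25 (edgeR adjusted p 0.128), and without Control replicate 1 it was -0.64 (edgeR adjusted p 0.00157). DESeq2 gave an adjusted p of 0.248 and removal of GC and length trends a log2 fold change of -0.35 (edgeR adjusted p 0.0857). With the replicate number also in that fit, although no label ties the numbers between groups, Rplp1 was called (-0.35, edgeR adjusted p 0.000314). It was also called with no filter on low counts (-0.47, edgeR adjusted p 5.47e-08), so the call depended on the model.

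The other stalk genes did not pass the threshold. Rplp0 (chromosome 5, 115559467 to 115563727) was at 45.6, 47.5 and 42.6 CPM in Control and at 42.0, 39.3 and 41.7 CPM in CBP-ifKO. The groups did not overlap, but the difference was small, with a log2 fold change of -0.15 ± 0.0753 (SE, adjusted p 0.282 in edgeR). Rplp2 was at 12.9, 16.7 and 13.4 CPM in Control and at 10.8, 15.1 and 17.5 CPM in CBP-ifKO (a log2 fold change of 0.02, SE 0.154), and its direction turned when single libraries were left out.

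After Rplp1, the lowest log2 fold changes among members of at least 10 CPM were those of Rps19 and Rpl8. Rpl8, a protein of the large subunit, was at 125.2, 158.2 and 133.5 CPM in Control and at 120.8, 127.8 and 124.1 CPM in CBP-ifKO, with a log2 fold change of -0.16 ± 0.0765 (SE, adjusted p 0.235 in edgeR). Control replicate 2 was again the highest library. Without it the log2 fold change was -0.05, and with GC and length trends removed it was -0.008. Rps19, mutated in Diamond-Blackfan anaemia, was at 31.3, 36.6 and 31.9 CPM in Control and at 29.95, 30.3 and 28.5 CPM in CBP-ifKO. Its groups did not overlap, with a log2 fold change of -0.17 ± 0.0875 (SE, adjusted p 0.277 in edgeR).

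Of the members with a mean of at least 10 CPM, Rps18, Rpl7 and Rpl22l1 had the highest positive values. Rps18 was at 9.39, 10.5 and 8.93 CPM in Control and at 10.7, 11.4 and 11.9 CPM in CBP-ifKO (a log2 fold change of 0.24 ± 0.126, SE, and adjusted p 0.299 in edgeR). Rpl7 was at 50.4, 50.4 and 48.5 CPM in Control and at 53.8, 59.4 and 54.4 CPM in CBP-ifKO (a log2 fold change of 0.17 ± 0.0705, SE, and adjusted p 0.178 in edgeR). For both genes every CBP-ifKO library was above every Control library. Of the 50-base stretches of the Rps18 transcript, 86.7% also occur in another gene, against 53.3% for Rpl7. Rpl22l1 was at 10.98, 10.2 and 9.72 CPM in Control and at 10.9, 11.96 and 11.9 CPM in CBP-ifKO, which overlapped (log2 fold change 0.17 ± 0.122, SE, and adjusted p 0.471 in edgeR).

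Rpl19, chosen after its values were seen, had the highest log2 fold change of all members. It was at 1.41, 1.29 and 1.39 CPM in Control and at 2.04, 2.43 and 2.22 CPM in CBP-ifKO, with a log2 fold change of 0.72 ± 0.262 (SE, adjusted p 0.116 in edgeR). The groups did not overlap, and the log2 fold change stayed between 0.65 and 0.78 when single libraries were left out. A library held between 14 and 37 counts of Rpl19, and 79.3% of the 50-base words of its transcript also occur in another gene.

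The other members with separated groups were also chosen after their values were seen, and none of them passed the threshold. Rpl31 was at 4.32, 4.64 and 3.97 CPM in Control and at 3.68, 2.89 and 3.62 CPM in CBP-ifKO (a log2 fold change of -0.36, SE 0.192). Rpl10a, a protein of the mobile L1 stalk, was at 6.76, 7.90 and 7.04 CPM against 5.04, 5.92 and 6.75 CPM (-0.29, SE 0.158). Rpl23 was at 23.6, 21.5 and 21.9 CPM against 25.2, 23.6 and 24.6 CPM (0.13, SE 0.0913). In Rpl31 and Rpl10a all CBP-ifKO libraries were the lower ones, and in Rpl23 the higher ones. Rpl35 was at 2.54, 2.92 and 1.88 CPM against 3.00, 3.62 and 2.96 CPM (0.38, SE 0.229). Rps10 was at 1.502, 1.46 and 1.49 CPM against 2.52, 1.91 and 1.56 CPM (0.41, SE 0.280), with the lowest CBP-ifKO library close to the Control libraries. Of the exon bases of Rps10, 20.6% are also exon of RPS10-NUDT3 on the same strand.

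**Figure D4:**
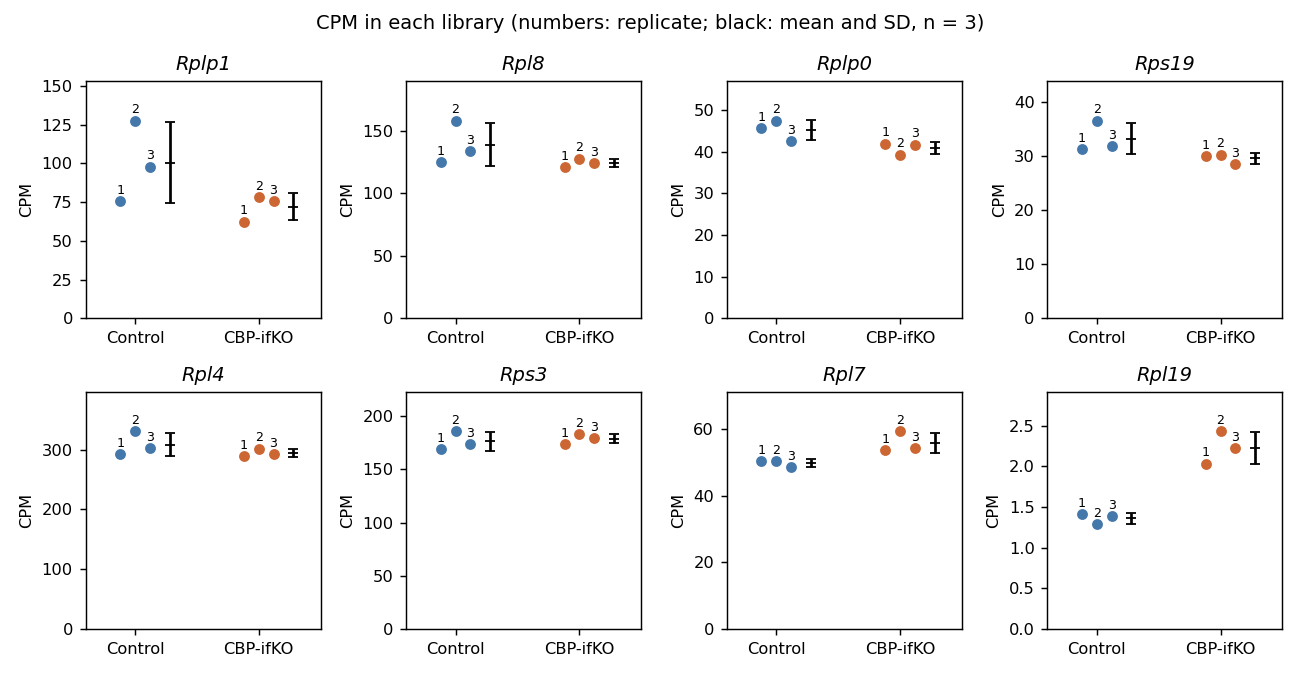
CPM of 8 members in each of the 6 libraries, from 0 upwards, with the replicate number at each point and the mean and SD (n = 3) in black. Rplp1 spreads from 75.9 to 127.7 CPM in Control, Rpl4 and Rps3 overlap between the groups, and Rpl7 and Rpl19 lie higher in every CBP-ifKO library.

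The SEs of Rpl4 and Rps3 were the lowest of the members named here. Rpl4, a core protein of the large subunit, was at 292.8, 330.6 and 301.9 CPM in Control and at 289.6, 301.7 and 292.2 CPM in CBP-ifKO (a log2 fold change of -0.07, SE 0.0593). Rps3, a small subunit protein at the entry of the mRNA channel, was at 169.1, 185.9 and 173.9 CPM in Control and at 174.1, 183.1 and 179.8 CPM in CBP-ifKO (a log2 fold change of 0.02, SE 0.0590). In both the groups overlapped, and the intervals ended at -0.19 and 0.06 for Rpl4 and at -0.10 and 0.15 for Rps3. Rps15 was at 60.5, 89.9 and 73.3 CPM in Control and at 72.4, 74.7 and 67.4 CPM in CBP-ifKO (a log2 fold change of -0.06, SE 0.104), all CBP-ifKO libraries lying inside the Control range.

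Rpl5 and Rpl11 join the 5S ribosomal RNA in a particle that also binds MDM2, the inhibitor of p53. Rpl5 was at 8.64, 8.93 and 8.33 CPM in Control and at 8.63, 9.20 and 9.88 CPM in CBP-ifKO (a log2 fold change of 0.10, SE 0.131). Rpl11 was at 2.35, 5.07 and 2.78 CPM in Control and at 2.23, 2.63 and 3.95 CPM in CBP-ifKO (a log2 fold change of -0.22, SE 0.287). The groups overlapped for both, and without Control replicate 2 the log2 fold change of Rpl11 turned to 0.21. Of the exon bases of Rpl5, 24.3% are also exon of Fam69a on the other strand.

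Rpsa, the laminin receptor precursor of the small subunit, was at 5.07, 5.93 and 6.05 CPM in Control and at 6.01, 6.57 and 6.09 CPM in CBP-ifKO (a log2 fold change of 0.14, SE 0.156). Rps6, the substrate of the S6 kinases whose phosphorylation is read as a marker of neuronal activity, was at 0.939, 2.23 and 1.09 CPM in Control and at 1.45, 1.38 and 1.15 CPM in CBP-ifKO. All CBP-ifKO libraries of Rps6 lay inside the Control range (-0.12, SE 0.348), and its sign turned with GC and length trends removed. Of its 50-base words, 84.6% also occur in another gene.

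Several ribosomal proteins have a paralogue that can take their place in some tissues. Rps27 and Rps27l encode near-identical proteins. The first 60 coding bases of both, with the 18 differing bases in capitals, show how far the messages have diverged (GENCODE transcripts, GRCm38, chromosome 3 minus strand and chromosome 9 plus strand).
Rps27: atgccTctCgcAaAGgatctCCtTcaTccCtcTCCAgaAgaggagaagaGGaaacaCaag
Rps27l: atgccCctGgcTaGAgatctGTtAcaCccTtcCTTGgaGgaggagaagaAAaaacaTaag

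Over all 255 coding bases of Rps27 and Rps27l, 76.1% were identical. The longest identical run was 11 bases, which is shorter than a read of 50 bases. With all other genes counted, pseudogenes among them, 98.7% of the 50-base words of Rps27 also occur elsewhere, against 22.4% for Rps27l. The part of this sharing in their levels was not tested. Rps27 was at 0.845, 1.89 and 1.69 CPM in Control and at 1.16, 2.50 and 2.06 CPM in CBP-ifKO (a log2 fold change of 0.41, SE 0.339). Rps27l was at 4.04, 4.12 and 2.98 CPM in Control and at 4.56, 4.34 and 4.44 CPM in CBP-ifKO (a log2 fold change of 0.25, SE 0.189). Rps27l did not overlap between groups whereas Rps27 did, and neither passed the threshold (edgeR adjusted p 0.543 for Rps27 and 0.492 for Rps27l).

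In Rpl22 and Rpl22l1 66.9% of aligned coding bases were identical. Rpl22 was at 62.5, 69.3 and 66.0 CPM in Control and at 67.2, 73.4 and 70.6 CPM in CBP-ifKO (a log2 fold change of 0.10, SE 0.0687), overlapping between groups like Rpl22l1. Rpl36a and Rpl36al shared 87.9% of coding bases, with no identical run above 24 bases. Rpl36a was at 3.38, 4.38 and 2.88 CPM in Control and at 3.59, 3.55 and 3.87 CPM in CBP-ifKO (a log2 fold change of 0.04, SE 0.205), and Rpl36al at 1.502, 2.23 and 1.69 CPM and at 2.23, 2.50 and 2.63 CPM (0.44, SE 0.253). Of the exon bases of Rpl36al, 24.5% are also exon of Gm49383 on the same strand.

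The paralogues of Rpl3, Rpl39 and Rpl10 had too few counts to be members. Rpl3l, a muscle gene, had 18 counts over the 6 libraries, Rpl39l, a testis gene, had 5, and Rpl10l, also of the testis, had 0. A count of 0 was taken, by a set value, to allow up to 3 counts, or between 0.197 and 0.298 CPM per library. This limit does not cover reads dropped for low mapping quality. The ubiquitous partners were measured. Rpl3 was at 19.9, 25.1 and 24.2 CPM in Control and at 22.5, 28 and 21.4 CPM in CBP-ifKO (a log2 fold change of 0.06, SE 0.118). Rpl39 was at 24.3, 27.8 and 21.7 CPM against 22.5, 29.6 and 25.5 CPM (0.08, SE 0.115). Rpl10 was at 3.00, 4.98 and 4.66 CPM against 6.69, 4.67 and 4.28 CPM (0.28, SE 0.220). In all 3 the groups overlapped.

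Rpl7l1 was at 31.9, 37.02 and 32.6 CPM in Control and at 31.2, 35.9 and 32.8 CPM in CBP-ifKO (a log2 fold change of -0.02, SE 0.0886). Rps4x, the X-linked gene of the small subunit, was at 16.2, 20.9 and 18.1 CPM against 17.2, 21.5 and 18.5 CPM (0.06, SE 0.118). In each of these genes replicate 2 was the highest library of both groups. The annotation lists Rps4l as a pseudogene, and it was outside the rule.

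Ribosomal proteins also come from genes with other names. Rack1, a scaffold on the small subunit that carries signalling proteins, was at 112.0, 134.1 and 124.5 CPM in Control and at 111.5, 123.2 and 123.6 CPM in CBP-ifKO (a log2 fold change of -0.05 ± 0.0721, SE, and adjusted p 0.772 in edgeR). The groups overlapped. Fau, which encodes a ubiquitin-like protein fused to a small subunit protein, stayed between 0.329 and 0.741 CPM and had too few counts to be tested.

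The levels of the members per length of exon differed widely. In Control, Rplp1 was at 201 ± 52.2 CPM per kb, Rpl4 at 154 ± 9.82, Rps15 at 118 ± 23.5 and Rpl8 at 102 ± 12.6 CPM per kb (SD, n = 3). Rplp1 and Rpl4 did not differ beyond these SDs, nor did Rps15 and Rpl8, whereas Rpl8 lay below Rpl4. The lowest members were Rps10 at 0.642 ± 0.00924, Rpl28 at 0.824 and Rps6 at 0.896 ± 0.446 CPM per kb. These levels used the deposited length, which counts the exon bases of all annotated transcripts of a gene. It was 499 bases for Rplp1, 2007 for Rpl4 and 2311 for Rps10, against 499, 1538 and 887 in their principal transcripts. The part of this length in the order of levels was not tested.

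Reads with a mapping quality of 10 or below had been dropped before counting, and a read that fits several places has a low quality. The part of this selection in the levels was not tested. For each member, the share of 50-base words of its principal GENCODE transcript that also occur in a transcript of another gene, elsewhere in the genome, was counted. It ran from 0% to 98.7% (Rps27), with a median of 44.0%, and 31 members shared at least 50% of their words. The median number of pseudogenes sharing a word with a member was 8.5, with up to 120 (Rpl7a). The words below, all within a coding exon of GRCm38, show shared and unshared stretches of members described here.
Rplp1, in 3 other genes (chr9:61913472-61913521, exon 3 of 3, minus strand): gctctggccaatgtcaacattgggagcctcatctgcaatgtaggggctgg
Rplp1, in no other gene (chr9:61914379-61914428, exon 1 of 3, minus strand): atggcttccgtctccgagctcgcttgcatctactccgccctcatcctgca
Rps27, in 5 other genes (chr3:90212950-90212999, exon 3 of 4, minus strand): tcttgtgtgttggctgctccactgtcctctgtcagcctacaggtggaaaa
Rpl19, in 11 other genes (chr11:98029417-98029466, exon 4 of 6, plus strand): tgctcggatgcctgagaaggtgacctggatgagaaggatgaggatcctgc

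The lowest and highest shares went with different levels. The 14 members with under 20% of shared words had a median Control level of 14.6 CPM per kb, and the 14 with at least 80% had a median of 2.31 CPM per kb and none above 7.26. Between them the order was not even, with medians of 9.10, 2.10 and 8.11 CPM per kb from 20 to 40, 40 to 60 and 60 to 80%. Across the 76 members, drawn from the same libraries and therefore not independent, the share of words and the Control level had a Spearman's rho of -0.47. Rplp1 departed from this order, with 60% of its words shared and the highest level per deposited length. Between the share of words and the log2 fold change rho was 0.02. The median log2 fold change was 0.02 in the 14 members with mostly unique words, of which none passed the threshold, and 0.03 in the 14 with at least 80%.

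**Figure D5:**
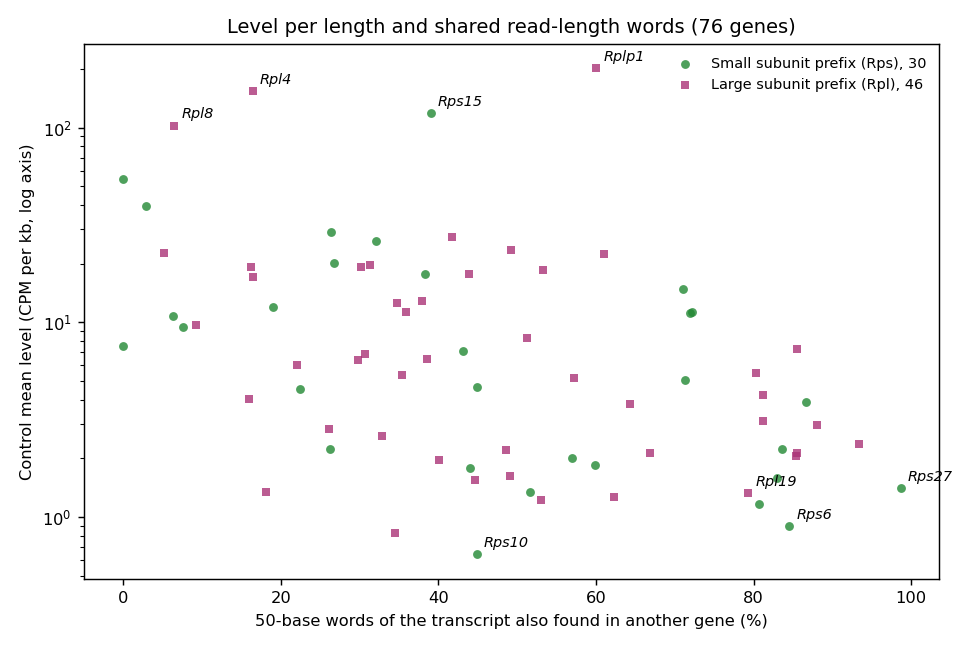
Mean Control level per length (CPM per kb, log axis) of the 76 members against the share of their 50-base words also found in another gene (%). Circles mark the small subunit prefix and squares the large subunit prefix. Members with at least 80% of shared words lie at or below 7.26 CPM per kb, whereas Rplp1 reaches 201 with 60%.

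The 1105 annotated pseudogenes that share a word with a member together held between 145 and 177 CPM per library, and 38 of them had at least 60 counts, against 1951 to 2293 CPM for the members. The pseudogene sums were 177, 145 and 165 CPM in Control and 164, 168 and 169 CPM in CBP-ifKO, all CBP-ifKO libraries lying inside the Control range.

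The 15 candidates under 60 counts included 5 standard ribosomal protein genes that every cell uses, Rps16 with 32 counts over all libraries, Rpl23a with 33, Rpl38 with 32, Rps29 with 29 and Rpl24 with 41. The part of read selection in these counts was not tested, and the share of their 50-base words found in another gene ran from 35.8% for Rps29 to 82.6% for Rpl23a. Of the others, Rpl9-ps6 had 9 counts, Rps27rt 7, Rpl10-ps3 2 and Rpl36a-ps1 1, and Rpl9-ps1, Rps12-ps3 and Rpl36-ps4 had 0 like Rpl10l. Of the members, Rpl35 shares 66.2% of its exon bases with Wdr38, Rpl31 25.3% with Tbc1d8 and Rps25 17.2% with Trappc4, on the opposite strand. Among the candidates under 60 counts, Rpl24 shares 47.0% with Gm28037 on the same strand and Rpl23a 59.7% with Tlcd1 on the opposite strand. Whether the counting used strand was not stated.

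Of 22 translation factors and other genes with TOP messages none passed the threshold, 16 were positive, and the median log2 fold change was 0.04. At an unadjusted p under 0.05 in edgeR, 1 of them was higher and 2 were lower, against 8.23% and 13% of all genes tested. Eef1a2, the elongation factor of mature neurons, came closest, at 454.4, 517.6 and 482.6 CPM in Control and at 449.2, 391.2 and 412.0 CPM in CBP-ifKO. Its groups did not overlap (log2 fold change -0.22 ± 0.0650, SE, and adjusted p 0.0577 in edgeR), and DESeq2 placed it just past the threshold (adjusted p 0.0495). Eef1a1, the isoform of other cells, was at 329.3, 481.7 and 399.4 CPM against 424.8, 505.3 and 427.1 CPM (0.17, SE 0.102), which overlapped. Without Control replicate 2 Eef1a1 was called higher (0.32, edgeR adjusted p 0.0158), and with GC and length trends removed the value of Eef1a2 was -0.02. Both were chosen after their values were seen.

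Of 32 genes of ribosome assembly and RNA polymerase I, 1 fell (3.12%) and none rose, 21 were positive, and the median was 0.09. Over all genes tested 4.99% were called lower and 1.4% higher. The gene that fell was Bop1, a nucleolar factor in processing of the large subunit RNA. Bop1 was at 35.6, 43.6 and 37.5 CPM in Control and at 29.7, 29.4 and 30.2 CPM in CBP-ifKO (a log2 fold change of -0.39 ± 0.0884, SE, and adjusted p 0.0139 in edgeR). The groups did not overlap, and the call was made in 3 of 6 fits that left out a library. With GC and length trends removed the log2 fold change was -0.24 (edgeR adjusted p 0.0687).

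Of 19 genes that regulate ribosomal protein synthesis, among them Mtor, Larp1 and Myc, none passed the threshold, none had an unadjusted p under 0.05 in edgeR, and the median was 0.02. Mtor was at 170.9, 165.0 and 176.3 CPM in Control and at 176.5, 169.9 and 181.0 CPM in CBP-ifKO (a log2 fold change of 0.04, SE 0.0579). The mitochondrial ribosomal protein genes, which build the separate ribosome of mitochondria, gave a family of similar size. Of 78 listed, 76 were tested and none passed the threshold, with 48 positive and a median of 0.04. At an unadjusted p under 0.05 in edgeR, 7 were higher and none was lower, against 8.23% and 13% of all genes tested. They summed to between 1426 and 1597 CPM in Control and between 1522 and 1607 CPM in CBP-ifKO.

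The direction of the cytosolic family turned with the Control libraries that entered the comparison. Without Control replicate 2, 60 of the 76 members were positive with a median of 0.12, and without Control replicate 1, 33 were positive with a median of -0.01. Other lists moved the same way in these fits. In the same order, medians were 0.11 and 0.018 for mitochondrial ribosomal protein genes, 0.097 and 0.021 for translation genes and 0.12 and 0.058 for assembly genes. The medians of all genes tested in these fits are not given here. In all 6 fits that left out a library, no member was called higher and at most 1 was called lower.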

How the data were processed

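Per the labels, 50-base single-end libraries were sequenced on a HiSeq2500. The submitters' processing notes and the study's methods name FastQC 0.11.8, Trim Galore 0.6.4, STAR 2.6.1 (GRCm38), a mapping quality above 10 and exon counting with Rsubread on Ensembl genes. The authors deposited raw counts per gene, not normalized, and a gene length. Strand use is not given in the sources used here.

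Symbols came from GENCODE vM21 (55230 of 55471 identifiers matched). Groups came from the sample titles. Counts were tested with edgeR 4.0.16 (R 4.3.3), quasi-likelihood, TMM, filterByExpr (minimum count 10, total 15), with Benjamini-Hochberg adjustment over 17981 genes and a threshold of 0.05. Levels per kb used the deposited length. Coding bases and 50-base words came from GENCODE transcripts (GRCm38), and exons of other genes at a locus were left out of the word counts. The code was tested on simulated data. The study's methods describe samples of pooled or single mice, and p-values measure the spread between 3 libraries a group. The fit had no replicate block. Depth set the precision: below 10 CPM the median SE was 0.202.

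The members and lists were chosen with earlier results of these data known. The genes named were Crebbp and Esr1, members and listed genes past the threshold, the 3 highest and 3 lowest log2 fold changes among members of at least 10 CPM, the 3 highest levels per length, candidates under the count minimum, the stalk, 5S particle and paralogue genes, Rpsa, Rps6, Rps19, Fau and Rack1. Values of some single genes under this rule are not reported here. Other genes were named after their values were seen. Alternatives were DESeq2 1.42.0, limma-voom 3.58.1, robust dispersions, other scalings and filters, left-out libraries, GC and length offsets (splines, 5 degrees of freedom) and the replicate block.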

Additional observations from a re-analysis of the deposited data

How the results depend on the processing

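Of the named genes' log2 fold changes under alternatives that kept all libraries, 493 kept direction and side of the threshold, 11 fell short of it, 7 passed it and 5 changed sign. With GC and length offsets, without and with the replicate block, the sign turned for Rps6 (0.050 and 0.066) and Rps15 (0.19 and 0.19). With library totals, which moved the median of all genes from -0.003 to 0.04, Rpl7l1 stood at 0.024.

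The same-numbered replicates correlated at 0.08, 0.04 and 0.002 over all genes tested and at 0.24, -0.10 and 0.13 over the members, and no label ties them, so the numbers were not taken as pairs. Under the replicate block 1 member was called lower, Rplp1 (-0.46, edgeR adjusted p 0.00199), and 1 mitochondrial ribosomal protein gene higher. The count of members called lower was 0 with DESeq2, limma-voom, robust dispersions, library totals, and GC and length offsets. It was also 0 among mostly unique members (under 20% of words shared). That set leaves out Rplp1, with 60% of its words shared, so its count says nothing about the Rplp1 call. Genes called higher over all genes tested numbered 514 with library totals, 413 with no filter and 717 with the block and offsets. Eef1a2 alone of the translation genes was called lower (count 1) with DESeq2, limma-voom, robust dispersions and no filter. Mdn1 was the assembly gene called higher (count 1) with library totals and with offsets, without and with the block, and 0 assembly genes were called lower with offsets alone. Mitochondrial ribosomal protein genes called higher numbered 1 with robust dispersions, 2 with upper-quartile factors, 3 with library totals, 1 with no filter and 2 with the block and offsets. The median of the regulators was 0.062 with library totals, 0.064 with offsets and 0.063 with block and offsets.

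Leaving out single libraries, genes called higher ran from 76 to 342 and lower from 416 to 984, members called lower from 0 to 1, translation genes called higher and lower each from 0 to 1, assembly genes called lower from 0 to 1 and mitochondrial genes called higher from 0 to 2. Log2 fold changes ran from -0.11 to 0.026 for Rack1, -0.47 to 0.21 for Rpl11, -0.067 to 0.15 for Rpl3, -0.085 to 0.23 for Rpl36a, -0.031 to 0.19 for Rpl39, -0.076 to 0.059 for Rpl7l1, -0.12 to 0.18 for Rplp2, -0.19 to 0.11 for Rps15, -0.038 to 0.17 for Rps4x, -0.35 to 0.39 for Rps6, -0.0073 to 0.072 for Rps3 and -0.52 to 0.0020 for Rpl36. Medians ran from -0.011 to 0.12 for the members, 0.058 to 0.12 for assembly, 0.018 to 0.11 for mitochondrial, 0.021 to 0.097 for translation, and 0.0050 to 0.060 for regulator genes. The cause was not tested.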
